A study of Mus musculus with 24 samples.

Results

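The MHC class II pathway was followed in skin of the murine GVH-SSc model, in which transferred spleen cells that differ at minor antigens cause graft-versus-host disease with skin features of scleroderma, through 9 named genes of the 18193 genes measured. They were H2-Aa, H2-Ab1, H2-Eb1, H2-DMa, H2-Oa, H2-Ob, Cd74, Ciita and Ctss, chosen by symbol, and they were read by 17 of the 45101 probe sets on the array. Expression was measured on 24 Affymetrix arrays of total RNA from the shaved skin of the upper back. All recipients were female RAG2-/- mice, which lack T and B cells of their own because RAG2 is needed to assemble antigen receptors. The syngeneic groups had been given Balb/c splenocytes. The isotype groups had been given B10.D2 splenocytes and an isotype control antibody, and the anti-IFNAR1 groups B10.D2 splenocytes and an antibody to IFNAR1, a chain of the receptor for type I interferons. Each of these was sampled at day 14 and day 28, with 4 arrays per group in 6 groups. The labels name no antibody for syngeneic mice and give no age, and they do not say that the arrays of a group are separate animals, so each p-value weighs a difference against array-to-array spread, which may be technical. Any T or B cell in this skin would be of donor origin, whereas loss of RAG2 leaves the recipient's macrophages, dendritic cells and keratinocytes in place. In whole skin, fewer cells of a type and less RNA per cell cannot be told apart.

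MHC class II molecules present peptides from taken-up proteins to CD4+ T cells, mainly on dendritic cells, macrophages and B cells. Each is a pair of an alpha and a beta chain that forms with the invariant chain, Cd74. In endosomes, proteases such as cathepsin S (Ctss) trim the invariant chain, H2-DM then exchanges its last fragment for a peptide, and H2-O holds H2-DM back, chiefly in B cells. Ciita is the coactivator that switches these genes on, and interferon gamma is its best-known inducer in cells other than dendritic cells and B cells. In skin, resident class II cells include Langerhans cells of the epidermis and dendritic cells and macrophages of the dermis.

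Class II promoters are known for the X and Y boxes, which are bound by the RFX complex and by NF-Y, and upstream sequence is shown here so that the members holding their letters can be seen beside the members' levels below. RefSeq promoter entries on GRCm38.p6, spanning 250 bases before to 50 bases after a gene start, were found for 6 of the 9 genes, and H2-DMa has more than 1 entry. The first search was for GCAAC followed, after 25 to 28 bases, by ATTGG, and the second for GAAA followed, after 2 bases, by GAAA, each on both strands and with no overlap between the letters of the pair. The letters were chosen after the members' sequences had been seen. Each stretch is printed 5′ to 3′ on the strand of its gene, with the matching letters in capitals. The windows were chr17:34287852-34287919 on the minus strand for H2-Aa and, on the plus strand, chr17:34305761-34305827 for H2-Eb1, chr17:34092288-34092355 for H2-Oa, chr17:34238803-34238867 for H2-Ob and chr3:95526750-95526789 for Ctss.
H2-Aa: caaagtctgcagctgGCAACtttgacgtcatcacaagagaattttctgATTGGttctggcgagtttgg
H2-Eb1: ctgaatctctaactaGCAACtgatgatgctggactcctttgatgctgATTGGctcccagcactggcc
H2-Oa: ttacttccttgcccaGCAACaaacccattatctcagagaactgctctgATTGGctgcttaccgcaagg
H2-Ob: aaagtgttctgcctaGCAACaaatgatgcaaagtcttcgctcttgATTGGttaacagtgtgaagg
Ctss: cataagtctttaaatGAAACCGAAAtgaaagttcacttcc

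The pair of letters stood in the promoters of H2-Aa, H2-Eb1, H2-Oa and H2-Ob, with 28, 27, 28 and 25 bases between them. It was present in 66 of 32851 mouse promoters of this length (0.201%). Of the 35 promoters of genes whose symbol starts with H2-, 5 held it (these 4 and H2-Eb2). The letters were chosen with the members' sequences in view, so these shares are not a test of the members. ATTGG alone was found in 37.4% of promoters. In Ctss, the letters of the second search began 21 bases before the start, and they were present in 3.44% of promoters. Neither search matched the H2-DMa entries. Their windows, chr17:34122582-34122881 and chr17:34125268-34125567, lie inside the listed span of that gene, 34119693 to 34139101, and not at its start. Sequence before the start of that span was thus not searched. A match is a description of the letters and not a site shown to be used, and the reference is that of C57BL/6J, whose H2 haplotype is not that of Balb/c and B10.D2 mice. The genes H2-Oa, H2-DMa, H2-Ob, H2-Ab1, H2-Aa and H2-Eb1 lie within the same stretch of chromosome 17, between positions 34092379 and 34316674 on GRCm38.p6. Ciita lies on chromosome 16, Ctss on chromosome 3 and Cd74 on chromosome 18.

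All levels below are log2(intensity + 16), on which the dimmest probe sets read a little over 4, and levels of different genes are not compared. A change is a difference of group means with its standard error, from limma fitted to all 24 arrays and 18193 genes, and a gene is called where the Benjamini-Hochberg adjusted p lay under 0.05. The brightest members, H2-Aa, H2-Ab1, H2-Eb1, Cd74 and Ctss, lay between the 95.2th and 99.9th percentile of all genes on every array. H2-DMa lay between the 85.5th and 97.4th percentile and Ciita between the 47th and 64.9th. H2-Oa and H2-Ob were near background, between the 31.9th and 62nd percentile.

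Some arrays stood apart from their group. The syngeneic day 14 arrays were uneven, with a mean level of the 9 members of 10.99, 10.7, 10.05 and 9.93 on replicates 1 to 4. The same split was seen in genes outside the pathway, since the mean of 14 interferon gamma-induced genes was 11.4, 10.21, 7.77 and 8.01 and that of 10 class I presentation genes 12.63, 12.52, 11.32 and 11.16. The 3′ to 5′ log2 ratio of the Gapdh control probe sets, a sign of RNA quality, was 3.18, 0.99, 0.97 and 6.27 on those arrays. It was highest on replicate 4, and its part in the split was not tested. Isotype day 14 replicate 1 was the lowest array of its group for 8 of the 9 members, and its keratinocyte marker mean was 12.67 against 13.87 to 14.06 on the other isotype arrays of that day. Hair follicle markers ran from 7.14 to 11.74 in syngeneic and from 5.19 to 8.18 in isotype skin at day 28, and reached 13.12 on anti-IFNAR1 day 28 replicate 2.

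At day 28 the class II pathway was higher in isotype than in syngeneic skin. H2-Aa, H2-Ab1, H2-Eb1, H2-DMa, Cd74 and Ctss were called higher, 6 of the 9 members, where 6.66% of all genes were called higher. The median change of the 9 was 0.97, against a median of -0.00 over all genes. H2-Oa, H2-Ob and Ciita were not called.

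**Figure D1:**
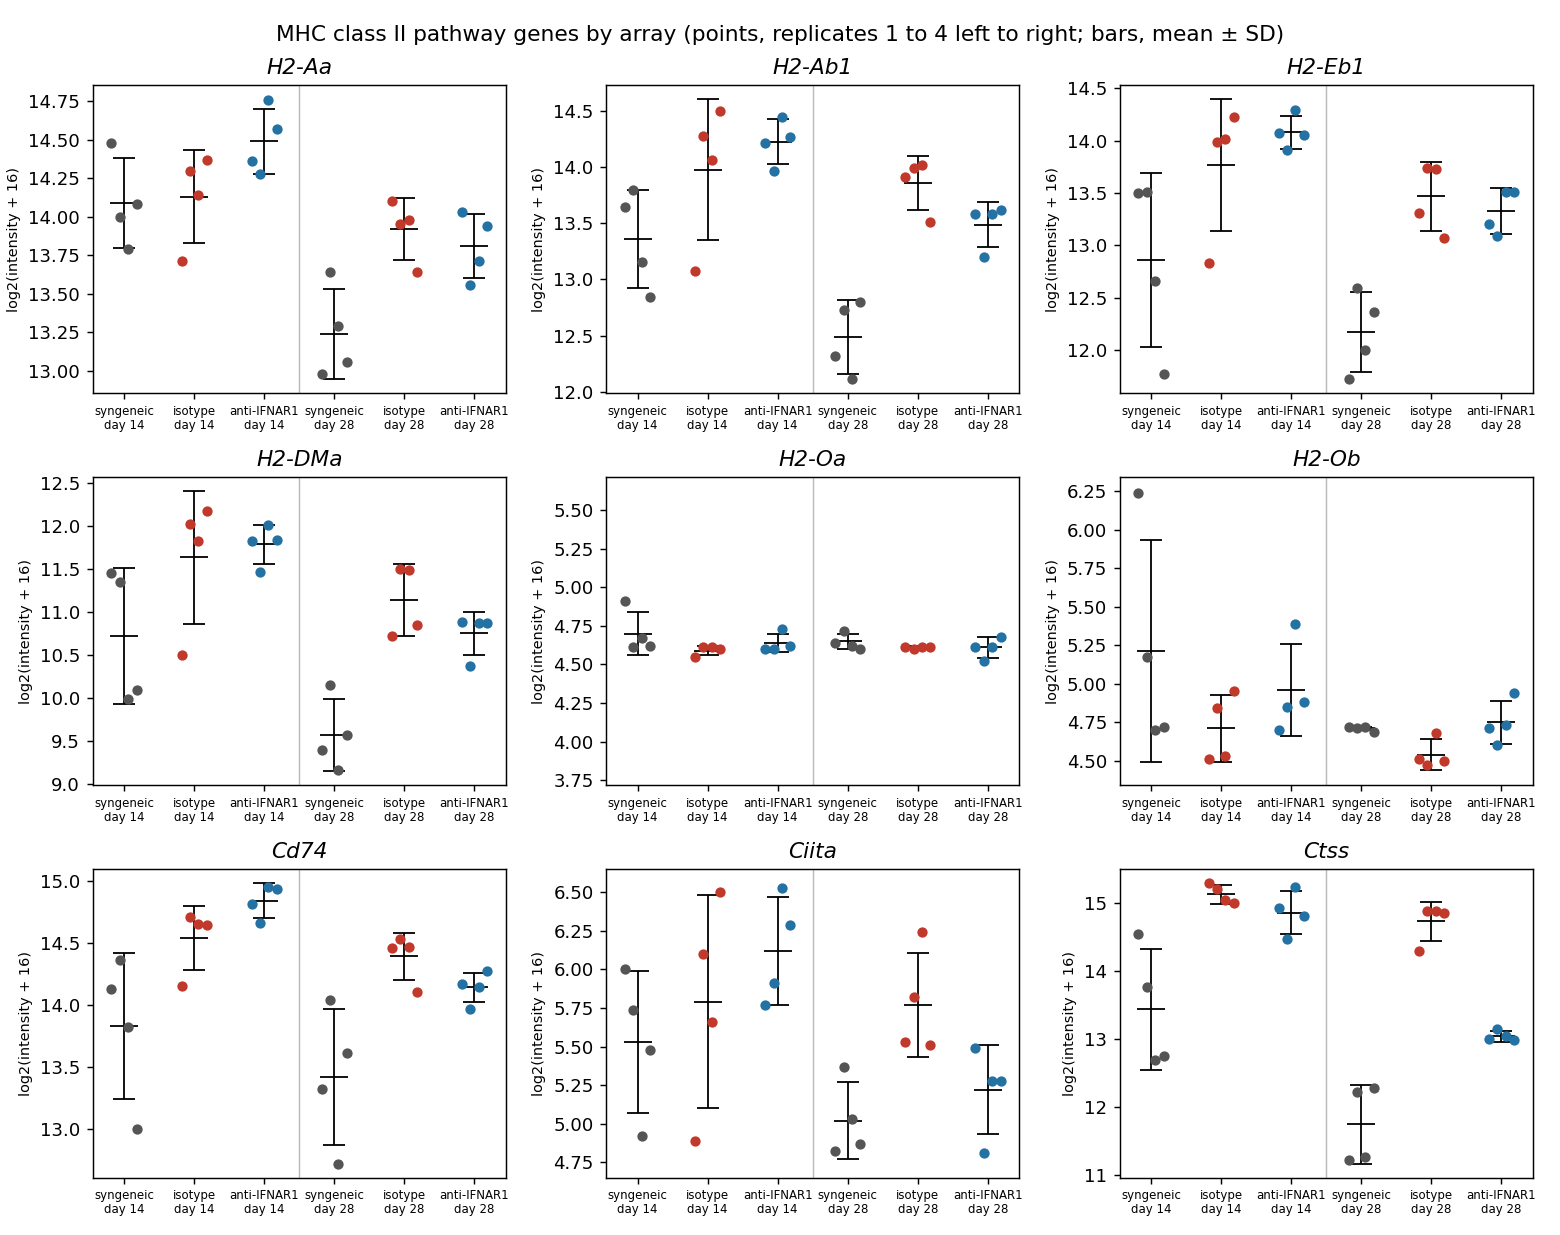
Level of each class II gene on each array, in log2(intensity + 16), with 1 panel per gene, its own axis in each panel and 6 groups of 4 arrays from left to right (points, replicates 1 to 4; bars, mean ± SD; the vertical line parts day 14 from day 28). At day 28, Ctss in isotype skin (14.29 to 14.88) lies above anti-IFNAR1 skin (12.98 to 13.15), which lies above syngeneic skin (11.22 to 12.28), whereas H2-Eb1 in anti-IFNAR1 skin lies within the isotype range.

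Among the chains, H2-Ab1 encodes the beta chain of the I-A molecule. Its level at day 28 was 12.32, 12.73, 12.11 and 12.8 in syngeneic skin and 13.91, 13.99, 14.02 and 13.51 in isotype skin. Every isotype array lay above every syngeneic array, and 7 members were higher without overlap in this comparison, against 8.09% of all genes. The change was 1.37 ± 0.26 (SE, n = 4 arrays per group), which is 2.58-fold (limma, adjusted p = 0.0012).

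H2-Eb1, the beta chain of the I-E molecule, read 11.72, 12.59, 12 and 12.36 in syngeneic and 13.31, 13.74, 13.73 and 13.07 in isotype skin at day 28. The groups did not overlap, and the change was 1.3 ± 0.34 (limma, adjusted p = 0.011). H2-Aa, the I-A alpha chain, read 12.98, 13.64, 13.29 and 13.06 in syngeneic and 14.1, 13.95, 13.98 and 13.64 in isotype skin. The lowest isotype and the highest syngeneic array thus met at 13.64 after rounding. The change of H2-Aa was 0.68 ± 0.18 (limma, adjusted p = 0.012), the smallest of the 6 called changes.

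Cd74, the invariant chain, read 13.32, 14.04, 12.72 and 13.61 in syngeneic and 14.46, 14.53, 14.47 and 14.1 in isotype skin at day 28. These groups did not overlap either, and the change was 0.97 ± 0.25 (limma, adjusted p = 0.012). H2-DMa, the alpha chain of the peptide exchanger, read 9.4, 10.15, 9.17 and 9.57 in syngeneic and 10.72, 11.5, 11.49 and 10.85 in isotype skin. Again no array of one group reached the other, and the change was 1.57 ± 0.37, which is 2.96-fold (limma, adjusted p = 0.0058).

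Ctss, the protease that removes the invariant chain in dendritic cells, macrophages and B cells, had the widest difference among the members. Its level at day 28 was 11.22, 12.22, 11.27 and 12.28 in syngeneic skin and 14.29, 14.88, 14.88 and 14.86 in isotype skin. The gap between the groups was wider than the range within either of them. The change was 2.98 ± 0.33, which is 7.9-fold (limma, adjusted p = 1.5e-05).

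Ciita, the coactivator, read 4.82, 5.37, 5.03 and 4.87 in syngeneic and 5.53, 5.82, 6.24 and 5.51 in isotype skin at day 28. The groups did not overlap, but the difference of 0.75 ± 0.29 did not pass the test (limma, adjusted p = 0.092). H2-Oa and H2-Ob, the chains of H2-O, differed by -0.04 ± 0.05 and -0.17 ± 0.24 and stayed near background in both groups, with H2-Ob between 4.47 and 4.72. The H2-Ob arrays of isotype skin all lay below those of syngeneic skin, the only member to do so at day 28, against 12.2% of all genes. At these low signals the offset of 16 shrinks any difference.

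Leaving out any 1 of the 24 arrays gave 6 or 7 called members at day 28. With only the 8 arrays of this comparison in the fit, 5 members were called and Cd74 was not (limma, adjusted p = 0.071). With the hair follicle mean as a covariate, 2 members stayed called, Ctss at 2.82 ± 0.38 (limma, adjusted p = 0.00014) and H2-Ab1 at 1.21 ± 0.30 (adjusted p = 0.0093), and the changes of H2-Aa, H2-Eb1, H2-DMa and Cd74 lay between 0.52 and 1.17 with adjusted p from 0.051 to 0.083.

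At day 28, Ctss was lower in anti-IFNAR1 than in isotype skin, and the chains, Cd74 and H2-DMa were not called different. Ctss was the only member called lower than in isotype skin, 1 of 9, where 4.89% of all genes were called lower. The median difference of the 9 members was -0.25, against -0.00 over all genes.

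Ctss read 13.0, 13.15, 13.04 and 12.98 in anti-IFNAR1 skin at day 28. These arrays lay between the other groups with no overlap on either side. The change against isotype skin was -1.68 ± 0.33 (limma, adjusted p = 0.0021), and it was called under each of 39 settings, anti-IFNAR1 day 28 replicate 2 left out among them, at -1.83 to -1.62. The difference from syngeneic skin was 1.3 ± 0.33 and did not pass the test over all genes (limma, adjusted p = 0.51). Ciita was the other member lower without overlap, 2 of 9 in all, where 6.85% of all genes were lower without overlap. It read 5.49, 4.81, 5.28 and 5.28 under anti-IFNAR1, and its difference from isotype skin was -0.55 ± 0.29 (limma, adjusted p = 0.26; 95% interval -1.17 to 0.06).

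H2-Eb1 read 13.2, 13.09, 13.51 and 13.51 in anti-IFNAR1 skin at day 28, within the isotype range. Its difference from isotype skin was -0.14 (95% interval -0.84 to 0.57) and that from syngeneic skin was 1.16 ± 0.34. H2-Ab1 read 13.58, 13.2, 13.58 and 13.62, which overlaps isotype skin only at the lowest isotype array. The difference of H2-Ab1 was -0.36 from isotype skin (95% interval -0.91 to 0.18) and 1.0 ± 0.26 from syngeneic skin.

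H2-DMa read 10.89, 10.38, 10.88 and 10.88 in anti-IFNAR1 skin at day 28, with 3 of the 4 arrays within the isotype range. Its difference was -0.38 from isotype skin (95% interval -1.15 to 0.39) and 1.18 ± 0.37 from syngeneic skin. Cd74 read 14.17, 13.97, 14.14 and 14.27, and differed by -0.25 from isotype skin (95% interval -0.78 to 0.28) and by 0.72 ± 0.25 from syngeneic skin. H2-Aa read 14.03, 13.56, 13.71 and 13.94, and differed by -0.11 from isotype skin (95% interval -0.48 to 0.26) and by 0.57 ± 0.18 from syngeneic skin. The lower bounds of these intervals allow a fall of up to 1.15 (H2-DMa), so equal levels in the antibody groups were not shown.

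None of the 9 members was called between anti-IFNAR1 and syngeneic skin at day 28 by limma, in a comparison where 6 genes in all were called (0.033%). At an unadjusted p under 0.05, 6 of the 9 members passed, as did 370 of all 18193 genes. On the probe set used, H2-Ab1, H2-Eb1, H2-DMa and Ctss were higher in every anti-IFNAR1 array than in any syngeneic array. They were 4 of 9 members, where 1.34% of all genes were so. For each of these 4 the two-sided exact permutation test gave p = 0.029, the smallest that 4 against 4 arrays allow, and for Cd74 and H2-Aa it gave 0.057. Groups of 4 without overlap always give that smallest p, so it adds nothing to the lack of overlap. Of the 81 exact tests made on members, 31 reached that smallest p, and none fell below 0.075 after adjustment over the 81.

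With array weights, which give less weight to arrays that deviate from their group, 6 members were called higher in anti-IFNAR1 than in syngeneic skin at day 28. They were H2-Ab1 at 1.13 ± 0.16 (limma, adjusted p = 0.00073), H2-Eb1 at 1.48 ± 0.21 (adjusted p = 0.00093), Ctss at 1.5 ± 0.23, H2-DMa at 1.27 ± 0.25, H2-Aa at 0.67 ± 0.13 and Cd74 at 0.70 ± 0.16, and 656 genes were called in all. The comparisons of each antibody group with syngeneic skin share the syngeneic arrays, and those with isotype skin share the isotype arrays, so their values are set side by side and not correlated.

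**Figure D2:**
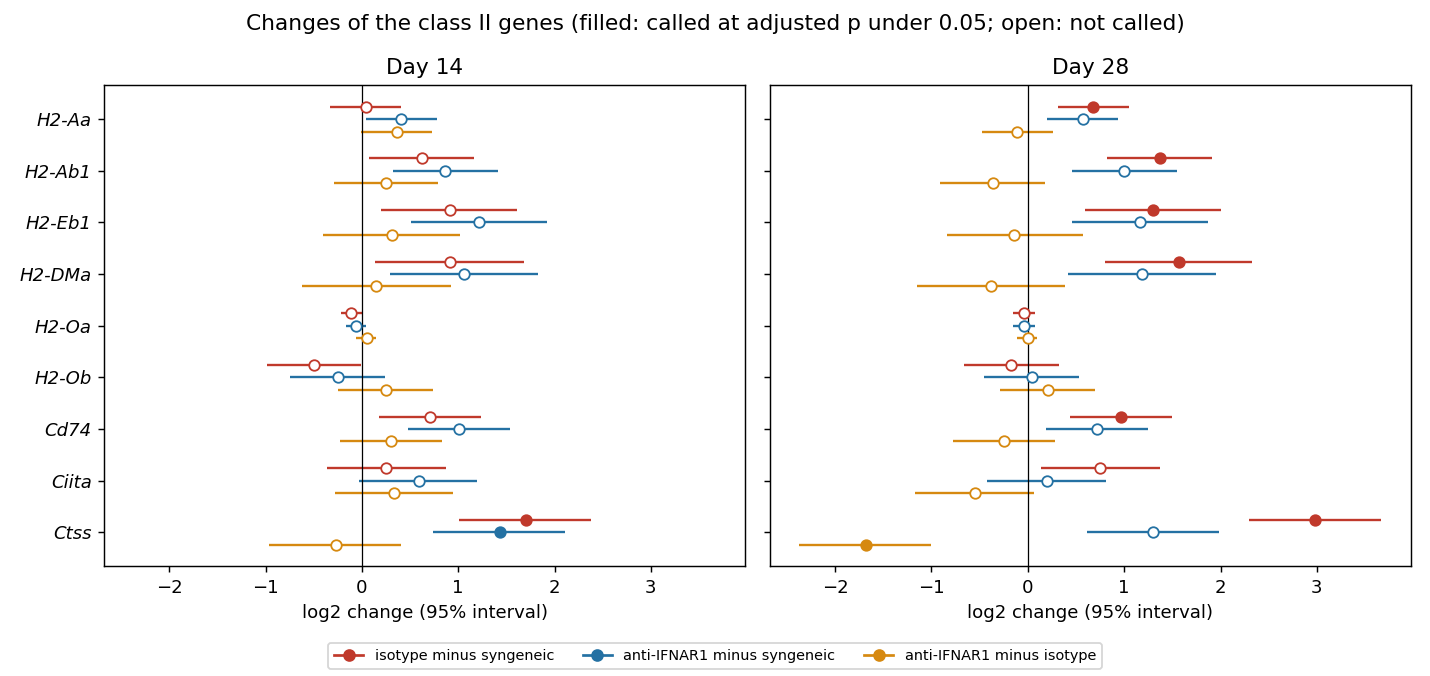
Log2 change of each class II gene with its 95% interval at day 14 and day 28, for isotype minus syngeneic, anti-IFNAR1 minus syngeneic and anti-IFNAR1 minus isotype (filled points, called at an adjusted p under 0.05; open points, not called). At day 28 the anti-IFNAR1 minus syngeneic values of H2-Eb1 (1.16) and H2-Ab1 (1.0) lie near the isotype minus syngeneic values (1.3 and 1.37), whereas Ctss is at 1.3 against 2.98.

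At day 14 the pathway was less clearly set apart between isotype and syngeneic skin. Ctss was the 1 member of 9 called higher, where 5.29% of all genes were called higher, and the median change of the members was 0.62 against -0.01 over all genes. Among the 9, 7 had an unadjusted p under 0.05, as did 4942 of all 18193 genes.

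Ctss read 14.55, 13.76, 12.69 and 12.75 in syngeneic skin at day 14 and 15.29, 15.2, 15.04 and 15 in isotype skin. The groups did not overlap, as was the case for 1 member higher and 1 lower (H2-Oa, near background), against 5.11% and 8.14% of all genes. The syngeneic arrays spanned a far wider range than the isotype arrays. The change was 1.70 ± 0.33, which is 3.24-fold (limma, adjusted p = 0.0031).

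H2-Eb1 read 13.5, 13.51, 12.66 and 11.77 in syngeneic and 12.83, 13.99, 14.02 and 14.23 in isotype skin at day 14. H2-DMa read 11.46, 11.35, 9.99 and 10.1 in syngeneic and 10.51, 12.03, 11.83 and 12.18 in isotype skin. H2-Ab1 read 13.65, 13.8, 13.16 and 12.84 in syngeneic and 13.08, 14.28, 14.07 and 14.5 in isotype skin. In all of these, 3 isotype arrays lay above every syngeneic array and replicate 1 lay inside the syngeneic range. The differences were 0.91 ± 0.34, 0.91 ± 0.37 and 0.62 ± 0.26 in that order, with adjusted p of 0.08, 0.11 and 0.13 by limma.

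Cd74 read 14.13, 14.36, 13.82 and 13.0 in syngeneic and 14.15, 14.71, 14.65 and 14.64 in isotype skin at day 14, a difference of 0.71 ± 0.25 (limma, adjusted p = 0.068). Ciita read 6.0, 5.74, 4.92 and 5.48 in syngeneic and 4.89, 6.1, 5.66 and 6.5 in isotype skin, a difference of 0.25 ± 0.29. H2-Aa read 14.48, 14, 13.79 and 14.08 in syngeneic and 13.71, 14.3, 14.14 and 14.37 in isotype skin, a difference of 0.04 ± 0.18. The groups overlapped for Cd74, Ciita and H2-Aa. H2-Ob read 6.24 and 5.17 on syngeneic replicates 1 and 2 and 4.7 and 4.72 on replicates 3 and 4, whereas isotype skin read 4.51 to 4.95.

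The count at day 14 changed with the arrays that were kept. Without syngeneic day 14 replicates 1 and 2, 5 members were called higher in isotype skin, H2-Ab1 at 0.98 ± 0.30, H2-Eb1 at 1.55 ± 0.34, H2-DMa at 1.59 ± 0.38, Cd74 at 1.13 ± 0.27 and Ctss at 2.41 ± 0.27, with a member median of 0.98. Without syngeneic replicates 3 and 4 the median was 0.23, Ctss was at 0.98 ± 0.30 (limma, adjusted p = 0.086), and the 1 member called was H2-Ob, lower at -1.0 ± 0.22 (adjusted p = 0.03). Without isotype day 14 replicate 1, H2-Ab1, H2-Eb1, H2-DMa and Ctss were called, at 0.92 ± 0.22, 1.22 ± 0.32, 1.29 ± 0.33 and 1.64 ± 0.36. Leaving out syngeneic day 14 replicate 1 or replicate 2 alone gave 3 called members, and leaving out syngeneic day 28 replicate 3 gave 2. These arrays were left out with their values known, so these are values under another choice of arrays and not further evidence. The count over all genes moved too, from 83 to 3638 over 39 alternative settings, so a higher member count is not a result on the members.

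In anti-IFNAR1 skin at day 14, no member was called against isotype skin by limma, where 0.813% of all genes were called in either direction. None of the 9 had an unadjusted p under 0.05 and none reached the smallest exact p, against 3075 of 18193 genes with such an unadjusted p. The median difference was 0.25 against 0.00 over all genes, and 0.03 without isotype day 14 replicate 1. No member was higher or lower without overlap, where 4.56% of genes were higher and 7.51% lower.

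H2-Eb1 read 14.07, 13.91, 14.29 and 14.06 in anti-IFNAR1 skin at day 14, H2-DMa read 11.83, 11.47, 12.02 and 11.84, and H2-Ab1 read 14.22, 13.97, 14.45 and 14.27. Cd74 read 14.81, 14.66, 14.95 and 14.93 in that group. On the probe set used, these 4 genes were higher on every anti-IFNAR1 array than on any syngeneic array of day 14. They were 4 of 9 members, where 1.62% of all genes were so. On their other probe sets, H2-Ab1 and H2-DMa overlapped syngeneic skin. Ctss read 14.93, 14.47, 15.23 and 14.81 and overlapped syngeneic skin through syngeneic replicate 1. Its difference from isotype skin was -0.27 ± 0.33 (95% interval -0.96 to 0.41).

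H2-Aa read 14.36, 14.28, 14.76 and 14.57 in anti-IFNAR1 skin at day 14, and Ciita read 5.77, 5.91, 6.53 and 6.29. Both overlapped the isotype and the syngeneic arrays of that day. The differences from isotype skin were 0.36 ± 0.18 for H2-Aa (95% interval -0.01 to 0.73) and 0.33 ± 0.29 for Ciita (95% interval -0.28 to 0.95).

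Against syngeneic skin at day 14, Ctss was called higher in anti-IFNAR1 skin at 1.43 ± 0.33 (limma, adjusted p = 0.041), the 1 member of 9, where 0.341% of all genes were called higher. That call was lost, with 0 members called, when any 1 of the anti-IFNAR1 day 14 arrays was left out, and likewise without syngeneic day 14 replicate 3 or 4, isotype day 14 replicate 2 or 3, isotype day 28 replicate 2, 3 or 4, or anti-IFNAR1 day 28 replicate 1, 3 or 4. The count was 2 without isotype day 14 replicate 1 or syngeneic day 28 replicate 2 or 3, and 3 without syngeneic day 14 replicate 2. The differences of the others that passed an unadjusted p of 0.05 were 1.22 ± 0.34 for H2-Eb1, 1.06 ± 0.37 for H2-DMa, 1.01 ± 0.25 for Cd74, 0.86 ± 0.26 for H2-Ab1 and 0.41 ± 0.18 for H2-Aa. Their adjusted p ran from 0.057 to 0.29. Without syngeneic day 14 replicates 1 and 2, 5 members were called (Ctss, Cd74, H2-Eb1, H2-DMa and H2-Ab1) and the member median was 1.23, whereas without replicates 3 and 4 none was called and it was 0.38. With the replicate number as a block the count was 0. Over all genes, the count in this comparison ran from 0 to 891 over 39 alternative settings.

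Between days, the levels of day 28 lay below those of day 14 more in anti-IFNAR1 and syngeneic than in isotype skin by their values, although the tests of those differences called no member. In anti-IFNAR1 skin Ctss fell by 1.82 ± 0.33 from day 14 to day 28 (limma, adjusted p = 0.019), the 1 member of 9 called lower, where 0.385% of genes were. The member median there was -0.73, and 7 of the 9 members were lower without overlap, against 4.05% of all genes. The call of Ctss was lost without anti-IFNAR1 day 14 replicate 3 or 4 or anti-IFNAR1 day 28 replicate 1, 3 or 4. The 7 were H2-Aa at -0.68, H2-Ab1 at -0.73, H2-Eb1 at -0.75, H2-DMa at -1.03, Cd74 at -0.70, Ciita at -0.90 and Ctss.

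In syngeneic skin no member was called between days by limma, where 0.077% of all genes were called. At an unadjusted p under 0.05, 5 of the 9 members and 1652 of all genes passed. H2-Aa, H2-Ab1 and Ctss were lower without overlap at day 28, 3 of 9 against 2.1% of genes (two-sided exact permutation test, p = 0.029 each, as a lack of overlap always gives), at -0.85 ± 0.18, -0.87 ± 0.26 and -1.69 ± 0.33, and the median over the members was -0.69. It was -0.18 without syngeneic day 14 replicates 1 and 2 and -1.0 without replicates 3 and 4, when 6 members were called. Leaving out syngeneic day 14 replicate 3 or syngeneic day 28 replicate 2 gave 2 called members, and leaving out syngeneic day 14 replicate 4 gave 1. The count over all genes ran from 0 to 493 over 39 alternative settings here. In isotype skin no member was called between days by limma, where 2.2% of all genes were called, and none had an unadjusted p under 0.05, against 2668 genes. The median there was -0.17, and Ctss was the member lower without overlap, at -0.40 ± 0.33, against 5.02% of genes. Without isotype day 14 replicate 1 the median was -0.35, H2-DMa was at -0.88 ± 0.33 in place of -0.50, and still no member was called.

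The change from syngeneic to isotype skin was compared between days with an interaction term. None of the 9 members was called by limma, where 0.044% of all genes were, and 2 had an unadjusted p under 0.05, as did 1775 genes. These were Ctss, whose change was larger at day 28 by 1.28 ± 0.46, and H2-Aa, by 0.63 ± 0.25, with adjusted p of 0.37 and 0.41. The value of Ctss depended on the syngeneic day 14 arrays, at 0.57 without replicates 1 and 2 and 2.0 without replicates 3 and 4, when it was called (limma, adjusted p = 0.035), and that of H2-Aa was 0.48 and 0.79. The same term for anti-IFNAR1 against isotype skin also called none of the 9, where 0.0715% of genes were called, and 2 members and 2468 genes had an unadjusted p under 0.05. Ctss differed by -1.41 ± 0.46 and Ciita by -0.89 ± 0.41, with adjusted p of 0.18 and 0.36. With array weights, Ctss was called at -1.37 (limma, adjusted p = 0.038). Without isotype day 14 replicate 1 the value of Ctss was -1.47 and that of Ciita -0.59, neither of them called.

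By the probe set used for each gene, H2-Ab1, H2-Eb1, H2-DMa and Cd74 had the same order of group means. Anti-IFNAR1 day 14 was highest, then isotype day 14, isotype day 28, anti-IFNAR1 day 28, syngeneic day 14 and syngeneic day 28. Neighbours in this order overlapped in each of these genes, with the exception of the syngeneic groups of H2-Ab1. In Ctss the order was isotype day 14 (15.13 ± 0.14, SD), anti-IFNAR1 day 14 (14.86 ± 0.31), isotype day 28 (14.73 ± 0.29), syngeneic day 14 (13.44 ± 0.89), anti-IFNAR1 day 28 (13.04 ± 0.08) and syngeneic day 28 (11.75 ± 0.58). In H2-Aa, the order of group means was anti-IFNAR1 day 14, isotype day 14, syngeneic day 14, isotype day 28, anti-IFNAR1 day 28 and syngeneic day 28. In Ciita, isotype day 28 and syngeneic day 14 came before anti-IFNAR1 day 28. For Ctss, each pair of neighbours in its order overlapped except the last, anti-IFNAR1 day 28 and syngeneic day 28, and syngeneic day 14 spanned 12.69 to 14.55.

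Each gene was represented by its brightest probe set, and other probe sets of a gene did not always give the same size or sign of change. For H2-Aa, the 4 probe sets gave isotype minus syngeneic values from 0.00 to 1.28 at day 14 and from 0.68 to 1.39 at day 28. The 3 probe sets of H2-Ab1 ran from 0.62 to 1.52 and from 1.37 to 1.90, the 2 of H2-DMa from 0.22 to 0.91 and from 1.04 to 1.57, and the 3 of Ciita from 0.16 to 0.41 and from 0.60 to 0.78. At day 28 all of these were above 0. Probe sets whose names end in _x_at or _s_at, which are those used for H2-Aa and H2-Ab1, can share probes with related transcripts. The 4 H2-Aa probe sets differed from isotype to anti-IFNAR1 skin at day 28 by -0.49 to -0.11 and the 3 of H2-Ab1 by -0.41 to -0.36. At day 14 the 3 of H2-Ab1 differed by -0.74 to 0.25, and only the probe set used was above 0. Overlap of groups is given for the probe set used. Between anti-IFNAR1 and syngeneic skin, the groups overlapped on both days on the other probe sets of H2-Ab1 and H2-DMa. For H2-Aa, overlap depended on the probe set. At day 28, another H2-Aa probe set read 11.75 to 12.08 in anti-IFNAR1 and 10.83 to 11.41 in syngeneic skin. The dimmest H2-Aa probe set read 6.02 to 6.72 and 5.02 to 5.98, so neither overlapped. The H2-Aa probe set used and the remaining one overlapped. At day 14, only the brighter of those without overlap at day 28 stayed so, at 12.39 to 12.8 against 11.76 to 12.35. Fitted on its own and adjusted over all probe sets, at least 1 probe set was called higher at day 28 in isotype against syngeneic skin for 6 members.

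**Figure D3:**
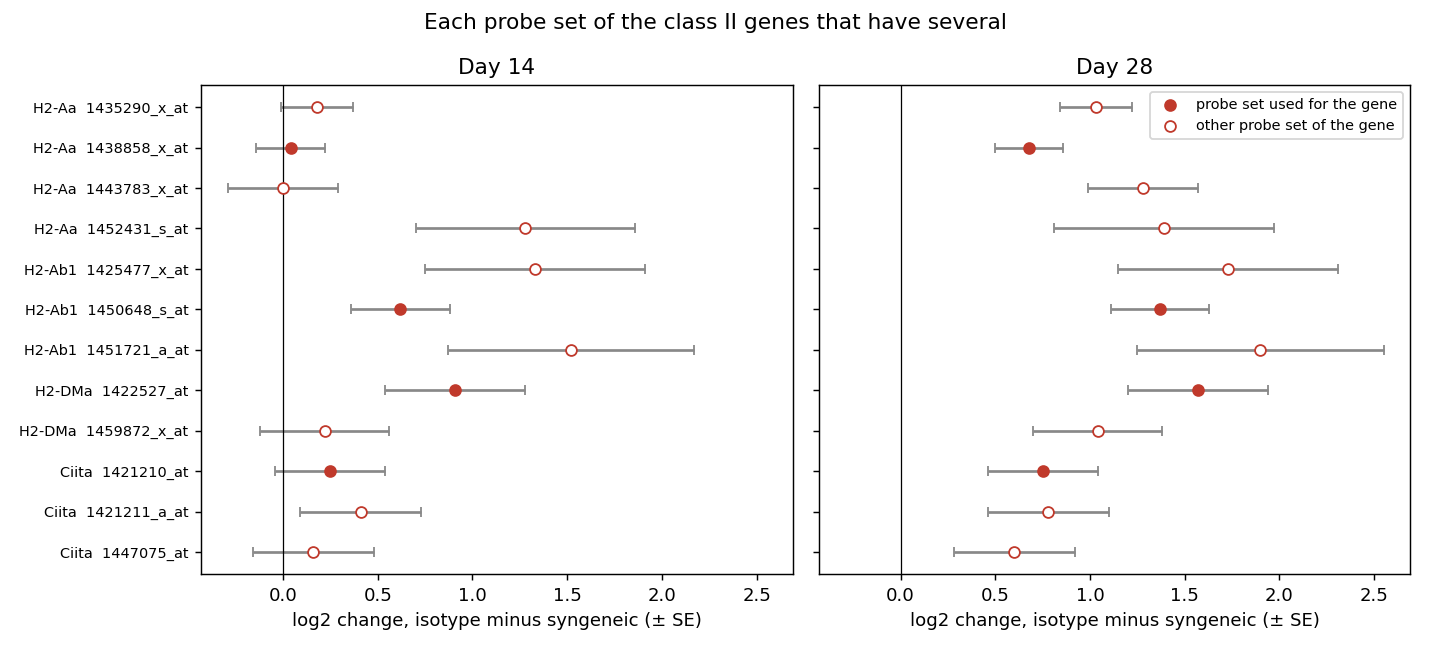
Log2 change from syngeneic to isotype skin (± SE) at day 14 and day 28 for every probe set of the class II genes that have more than 1 (filled, the probe set used for the gene; open, the others). At day 28 the points lie between 0.60 and 1.90, and at day 14 the H2-Aa probe sets spread from 0.00 to 1.28.

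The other genes of the pathway were measured beside the members. H2-Ea, the I-E alpha chain, which RefSeq lists as a transcribed pseudogene in the C57BL/6J reference, H2-Eb2 and H2-DMb2, a beta chain of H2-DM, were not called by limma in any of the 6 comparisons between groups of a day, with at most 1 of these 3 at an unadjusted p under 0.05 in each. A pair of further probe sets is listed for both H2-DMb1 and H2-DMb2, which they cannot tell apart, and these were used for neither gene. One of them read 7.94, 8.22, 7.2 and 8.27 in syngeneic and 9.69, 9.69, 9.65 and 9.24 in isotype skin at day 28, so those groups did not overlap there, whereas they overlapped on the probe set used for H2-DMb2. H2-Ea read 12.31, 12.95, 12.29 and 12.99 in syngeneic and 13.15, 13.89, 13.98 and 13.15 in isotype skin at day 28, without overlap, and differed by 0.91 ± 0.39 (limma, adjusted p = 0.13). H2-DMb2 differed by 0.61 ± 0.49 in that comparison. All 7 regulators that work with Ciita (Rfx5, Rfxap, Rfxank, Nfya, Nfyb, Nfyc and Creb1) were also without a call in those 6 comparisons, again with at most 1 at an unadjusted p under 0.05 in each, and Rfx5, a subunit of the RFX complex, differed by -0.28 ± 0.22 between isotype and syngeneic skin at day 28.

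Of 9 endosomal proteases and related genes, 4 rose in isotype against syngeneic skin at day 14 and 5 at day 28, and none fell. At day 28 these were Lgmn, the asparagine endopeptidase, at 1.62 ± 0.47, the cathepsins Ctsz at 1.33 ± 0.30, Ctsh at 1.13 ± 0.31 and Ctsd at 0.68 ± 0.21, and Ifi30, the thiol reductase of endosomes, at 1.29 ± 0.24. Their adjusted p by limma ran from 0.0011 to 0.03. Ifi30, Ctsh and Ctsz fell from isotype to anti-IFNAR1 skin at day 28, by 1.11 ± 0.24, 0.99 ± 0.31 and 0.95 ± 0.30, and so went the way of Ctss.

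Among genes that act on class II molecules at the surface or beside them, Marchf1, the ligase that sends class II to degradation, rose by 1.98 ± 0.43 in isotype against syngeneic skin at day 14 (limma, adjusted p = 0.0066), and Marchf8, a related ligase, fell by 0.57 ± 0.15 at day 28 (adjusted p = 0.013). Of the costimulatory genes Cd80, Cd86 and Cd40, Cd86 rose at day 14 by 0.89 ± 0.26 and Cd40 at day 28 by 2.11 ± 0.44. Cd40 fell from isotype to anti-IFNAR1 skin at day 28 by 1.51 ± 0.44 (limma, adjusted p = 0.028).

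Interferon gamma, the known inducer of Ciita, was called in 3 of the 6 comparisons between groups of a day. Ciita, a dim gene, was called in none of these, which were picked by the calls of Ifng, but had the same direction in each. From syngeneic to isotype skin Ciita differed by 0.25 ± 0.29 at day 14, with overlap, and by 0.75 ± 0.29 at day 28. From isotype to anti-IFNAR1 skin at day 28 it differed by -0.55 ± 0.29. Neither of these day 28 differences had overlap between groups. Where Ifng was not called, Ciita differed by 0.33 ± 0.29 from isotype to anti-IFNAR1 skin at day 14. From syngeneic to anti-IFNAR1 skin it differed by 0.59 ± 0.29 at day 14 and 0.2 ± 0.29 at day 28. The part of interferon gamma in the Ciita values was not tested. Ifng read 4.53, 4.54, 4.62 and 4.51 in syngeneic, 7.25, 7.52, 7.54 and 7.57 in isotype and 5.28, 4.99, 4.82 and 4.96 in anti-IFNAR1 skin at day 28. No 2 of these groups overlapped. Ifng rose by 2.92 ± 0.44 from syngeneic to isotype skin (limma, adjusted p = 0.0002) and fell by 2.46 ± 0.44 from isotype to anti-IFNAR1 skin (adjusted p = 0.0013), and anti-IFNAR1 differed from syngeneic skin by 0.46 ± 0.44. At day 14, Ifng read 6.81 on syngeneic replicate 1 and 4.58 to 4.9 on the other syngeneic arrays, and rose by 2.78 ± 0.44 in isotype skin. Irf1, a transcription factor induced by interferons, rose by 1.56 ± 0.43 at day 14 and 2.5 ± 0.43 at day 28.

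Lists of presentation and interferon genes stood beside the members. Of 14 measured interferon gamma-induced genes, 12 rose in isotype against syngeneic skin on each day, and 3 fell from isotype to anti-IFNAR1 skin at day 28 (Cxcl11, Cxcl10 and Icam1). Their median difference between anti-IFNAR1 and syngeneic skin was 1.43 at day 14 and 2.20 at day 28, where none was called by limma and 8 and 11 had an unadjusted p under 0.05. Of 16 type I interferon-induced genes, 11 and 12 rose in isotype skin at day 14 and day 28, 4 and 13 fell from isotype to anti-IFNAR1 skin, and the median difference of anti-IFNAR1 from syngeneic skin was 0.15 and 0.18. Of 10 class I presentation genes, 9 rose on each day, the median difference of anti-IFNAR1 from isotype skin was -0.3 and -0.57, and the median difference of anti-IFNAR1 from syngeneic skin was 0.75 and 0.90. The corresponding medians of the class II members were 0.86 and 0.72. Medians over all genes in these comparisons lay between -0.01 and 0.00. Nlrc5, the coactivator of class I genes and a relative of Ciita, rose by 1.17 ± 0.30 at day 28 (limma, adjusted p = 0.0099).

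**Figure D4:**
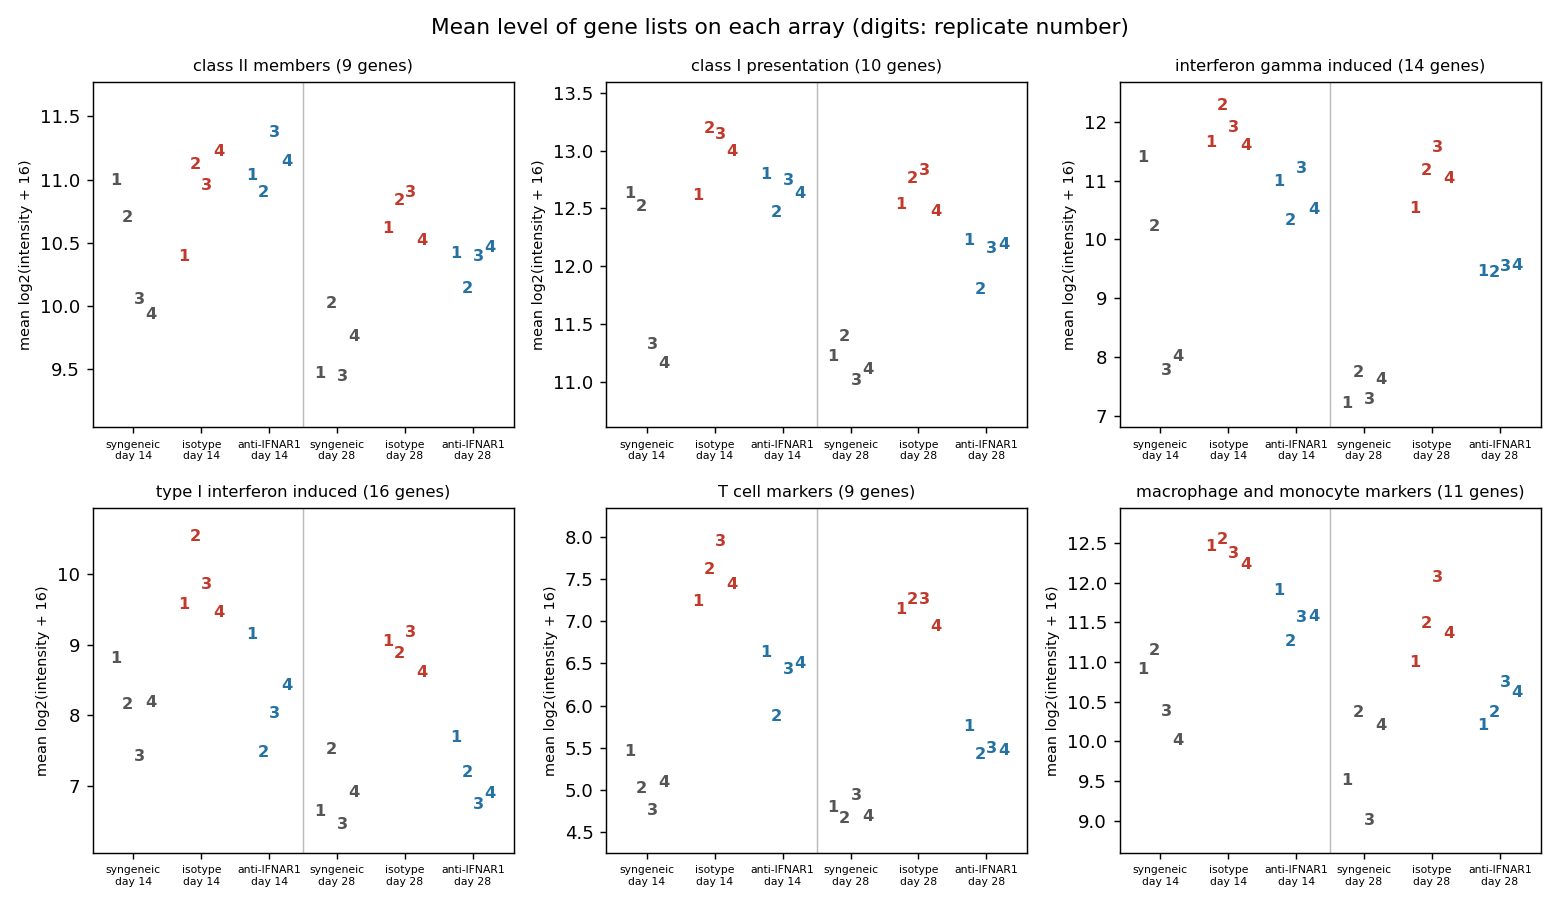
Mean level of 6 gene lists on each array, in log2(intensity + 16), with the replicate number as the plotting sign and the groups of day 14 left and of day 28 right of the vertical line. Syngeneic day 14 replicates 1 and 2 lie above replicates 3 and 4 in the class II, class I and interferon gamma lists. The class II mean of anti-IFNAR1 skin at day 28 (10.14 to 10.46) lies just below that of isotype skin (10.52 to 10.9). It lies above that of syngeneic skin (9.44 to 10.02). That mean includes Ctss, at -1.68 from isotype skin. Of the members, only Ctss and Ciita were lower there without overlap, and the others overlapped isotype skin.

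Markers of other cell types were read beside the members. Of 11 macrophage and monocyte markers, 9 rose in isotype against syngeneic skin on each day, and 4 (Fcgr1, Ms4a7, Cd68 and C1qb) fell from isotype to anti-IFNAR1 skin at day 28. The mean of that list at day 28 ran from 9.0 to 10.37 in syngeneic, from 11 to 12.06 in isotype and from 10.2 to 10.74 in anti-IFNAR1 skin. All 9 measured T cell markers rose in isotype skin on both days and fell from isotype to anti-IFNAR1 skin at day 28, when their mean ran from 4.66 to 4.94 in syngeneic, from 6.94 to 7.26 in isotype and from 5.42 to 5.75 in anti-IFNAR1 skin. The part of these cells in the class II changes was not tested.

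Of 11 Langerhans and dendritic cell markers, none rose in isotype against syngeneic skin at day 14, and Zbtb46, a transcription factor of dendritic cells, and Flt3, a growth factor receptor of their precursors, fell by 0.67 ± 0.22 and 0.19 ± 0.06 (limma, adjusted p = 0.048 for each). The groups overlapped for both genes, and Flt3 was near background, with means of 4.57 in isotype and 4.75 in syngeneic skin. At day 28, 1 rose and 1 fell. Cd207, the langerin of Langerhans cells, read 7.7, 8.18, 8.21 and 8.24 in syngeneic, 4.89, 5.01, 4.46 and 4.44 in isotype and 8.21, 6.73, 8.68 and 9.03 in anti-IFNAR1 skin. Isotype skin thus lay below both other groups at day 28 without overlap. Against syngeneic skin this was opposite in direction to the 6 class II members called higher. Between anti-IFNAR1 and isotype skin, Ctss was the only member called. Cd207 fell by 3.39 ± 0.65 from syngeneic to isotype skin (limma, adjusted p = 0.0013) and was higher in anti-IFNAR1 than in isotype skin by 3.47 ± 0.65 (adjusted p = 0.0017). Itgax, an integrin of dendritic cells and some macrophages, rose in isotype skin by 2.46 ± 0.47 (adjusted p = 0.0013) and fell under anti-IFNAR1 by 1.92 ± 0.47 (adjusted p = 0.01). The list mean at day 28 ran from 6.52 to 6.99 in syngeneic, 6.65 to 6.8 in isotype and 6.64 to 7.02 in anti-IFNAR1 skin. The part of these cells was not tested.

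Of the 9 measured B cell markers, Cd79a, Cd79b and Pax5, which define the lineage, were at background on every array, at 4.39 to 4.52, 4.43 to 4.66 and 4.3 to 4.33. On each day, Cd22 rose and Bank1 fell in isotype against syngeneic skin, and the list mean stayed between 4.57 and 4.95 on all 24 arrays. Of 7 keratinocyte markers, Krt14 rose in isotype skin on both days and Dsp fell at day 14.

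Over the 24 arrays, H2-DMa followed the mean of the other 8 members most closely (Pearson r = 0.94), and H2-Ab1 (0.90), H2-Aa (0.89), H2-Eb1 (0.88), Ciita (0.86), Cd74 (0.82) and Ctss (0.77) followed it too. H2-Ob (0.41) and H2-Oa (0.21), near background, did so least. The genes outside the 9 members whose levels were most like the mean of the members, each scaled to the same spread, were Itga4 (0.92), an integrin chain of leukocytes, Batf3 (0.91), a transcription factor of dendritic cells, Cd300lb, Nlrc5, H2-M3 and Mpeg1 (0.90 each), H2-Ea and Gbp6 (0.89), and Tap1 and Rassf4 (0.88). When group means were taken off first, so that only the unevenness between arrays of a group was left, the closest were Itga4 (0.95), Wars (0.90), Themis2, Psmb9 and H2-M3 (0.89 each), Irf8 and Idnk (0.86), and Uba7, H2-Ea and Cass4 (0.85). These correlations are descriptions over arrays that share groups.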

How the data were processed

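Expression was measured on 24 Affymetrix arrays, and the table deposited by the authors holds 1 linear intensity per probe set and array. The background correction, summarisation and normalisation behind the deposited intensity values are not given in the sources used here. The arrays had medians of 14.8 to 17.7 and intensities of 1.68 to 92640.3, and the number of arrays limits the precision. Log2(intensity + 16) was computed here from the deposited values, which were not on a log2 scale. Of 45101 probe sets, 64 were controls, 34945 had 1 gene symbol, 932 had more than 1, and the annotation lacked 9160. Each gene was read by its brightest probe set. limma 3.58.1 in R 4.3.3 was fitted to 18193 genes with 6 group means, and p-values were adjusted over all genes for each of the 11 comparisons. Exact two-sided permutation tests over arrays used scipy 1.17.1. No array pair was identical. The members and gene lists were chosen with earlier results of these data known. All 9 members are named, and from each other list up to 4 called genes with the largest change, with H2-Ea, H2-DMb2, Rfx5, Nlrc5, Ifng and Irf1 always, and the 10 genes most like the members. A few other genes (Ctsd, Marchf8, H2-Eb2) complete small lists. Other normalisations, filters, probe set rules, priors, covariates, blocks and sets of arrays were tried. The fit was tested on simulated data.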

Additional observations from a re-analysis of the deposited data

Results flagged for a closer look

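The 9 members in 6 groups gave 54 sets of 4 values. In 8 of them, 1 array stood farther from the nearest of the others than Dixon's 95% critical value for the share of a group's range allows. Chance gives about 1 in 20 for independent sets. The members share arrays and vary together, so 8 of 54 cannot be read against that rate. In isotype day 14 skin, replicate 1 was that array, with H2-Eb1 at 12.83, Cd74 at 14.15 and H2-Oa at 4.55, each the lowest of its group. In anti-IFNAR1 day 28 skin, replicate 2 was the lowest array for H2-Ab1 at 13.2 and for H2-DMa at 10.38, and the same array had the hair follicle mean of 13.12. In isotype day 28 skin, Ctss was lowest on replicate 1 at 14.29 and Cd74 was lowest on replicate 4 at 14.1. In anti-IFNAR1 day 14 skin, H2-Oa was highest on replicate 3 at 4.73, which is near background.

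Cd74 differed between anti-IFNAR1 and isotype skin by 0.30 at day 14 and by -0.25 at day 28, with opposite signs on the 2 days. For Cd74 the difference between the days was -0.55 ± 0.36 and did not pass the test (limma, adjusted p = 0.54). This was not particular to Cd74. On the probe set used, H2-Aa, H2-Ab1, H2-Eb1, H2-DMa and Ciita were also above 0 at day 14 and below 0 at day 28. Among these, the difference between the days was widest for Ciita, at -0.89 ± 0.41, and none was called.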

How the results depend on the processing

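No called change of a member changed sign under any alternative. Counts of called members for isotype against syngeneic skin at day 14, 1 as reported, were 3 with the dimmest genes removed or with the B cell mean as a covariate, 2 with array weights, 0 with only the arrays compared and 5 without syngeneic day 14 replicates 1 and 2. For anti-IFNAR1 against syngeneic skin at day 14, also 1, the count was 0 with quantile normalization, only the arrays compared, the B cell mean, every probe set on its own or without syngeneic day 14 replicates 3 and 4, 2 with the dimmest genes removed, 4 with the Gapdh ratio as a covariate and 5 without syngeneic replicates 1 and 2. The count at day 28 of isotype against syngeneic skin fell from 6 to 2 with the hair follicle mean, and that of anti-IFNAR1 against syngeneic skin went from 0 to 6 with array weights and to 1 without either pair of syngeneic day 14 arrays. Between days, syngeneic skin went from 0 to 1 with the dimmest genes removed, an offset of 1 or the Gapdh ratio, to 5 with array weights and to 6 without syngeneic day 14 replicates 3 and 4, and anti-IFNAR1 skin from 1 to 2 with the mean of probe sets or array weights and to 0 with the B cell mean. The interaction of isotype against syngeneic skin with day gave 1 without syngeneic replicates 3 and 4, and that of anti-IFNAR1 against isotype skin gave 1 with array weights. By the exact test, quantile normalization gave 1 in place of 2 members at day 14 and 5 in place of 8 at day 28 for isotype against syngeneic skin, and the mean of probe sets 1 in place of 2 for anti-IFNAR1 against isotype skin at day 28. Counts over all genes moved with the settings too, so a changed member count is not by itself a result on the members. The causes were not tested.

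Leaving out each array in turn gave 1 to 4 members for isotype against syngeneic skin at day 14 and 6 to 7 at day 28, 0 to 3 for anti-IFNAR1 against syngeneic skin at day 14 and 0 to 0 at day 28, and 0 to 0 and 1 to 1 for anti-IFNAR1 against isotype skin at day 14 and day 28. Between days it gave 0 to 2 in syngeneic, 0 to 0 in isotype and 0 to 1 in anti-IFNAR1 skin, and 0 to 0 for both interactions. Same-numbered arrays of different groups did not deviate together (median correlation -0.03 over 60 pairs, against 0.01 over 180 pairs of other numbers, with 3 arrays correlating best with their own number). No pairing by number was thus seen, but these correlations cannot exclude one. With the replicate block, the count for anti-IFNAR1 against syngeneic skin at day 14 was 0 in place of 1, and no other count of members changed. Genes called for isotype against syngeneic skin at day 14 numbered 2472, with 83 when only the arrays compared were fitted and 3638 with array weights, and array weights gave the highest count in all 11 comparisons, with 656 in place of 6 for anti-IFNAR1 against syngeneic skin at day 28. H2-Oa and H2-Ob lay so near background that small differences could not be measured.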

Other observations

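Other cell types of the skin were also read. Of 7 fibroblast markers, Fap, Dpt and Pdgfra fell in isotype against syngeneic skin on each day, and Fap and Dpt were higher in anti-IFNAR1 than in isotype skin at day 28. Of 5 endothelial markers, Tek and Vwf fell in isotype skin at day 14, and Kdr was higher in anti-IFNAR1 than in isotype skin at day 28. Of 13 hair follicle markers, Krt25 and Krt27 fell in isotype against syngeneic skin at day 28.

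Syngeneic day 14 replicate 1 read 6.44 for Ccr7, the receptor that guides dendritic cells to lymph nodes, and 6.24 for H2-Ob. Isotype day 14 replicate 1 read 6.81 for Ccr7 and 5.2 for Cd207, whereas the other isotype arrays of that day read 8.1 to 8.91 for Cd207.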
